A study of Rattus norvegicus with 6 samples.

Results

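The assembly factors of the large ribosomal subunit were examined in rat vascular smooth muscle cells, which contract the walls of vessels. They were chosen by name, as 40 proteins known to build the large subunit in the nucleus and cytoplasm. Earlier results of these data were known when they were chosen. All 40 symbols were found among the 18631 genes of the count table. Polyadenylated RNA was sequenced from 3 libraries labelled MIAT knockdown and 3 control libraries, titled Scr and given the genotype WT. Per the labels, small interfering RNAs and antisense oligonucleotides totalling 50 nM were left on the cells for 72 h. That text is attached to the control libraries too, and what the control cells received is not stated. MIAT is a long noncoding RNA whose own level was not analysed here, and the labels could not be checked against the target. Whether the libraries came from separate cultures is not stated either. The p-values thus measure the spread between these libraries or, in fits by pairs of same-numbered libraries, the spread of differences between those pairs. Either may be technical.

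Ribosomes are assembled in the nucleolus, where RNA polymerase I makes the long precursor of the ribosomal RNAs. Large subunit precursors first gather proteins that fold and hold the RNA, among them Brix-domain proteins, the PeBoW complex and several GTPases. AAA-ATPases then pull some of these factors off, the internal spacer called ITS2 is cut and trimmed, and the particle is exported and finished in the cytoplasm. None of these factors stays in the mature ribosome, and growing cells need them in quantity. The series title names nucleolar homeostasis. The comparison of knockdown with control gives RNA levels of these genes only, and the state of the nucleolus was not examined.

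Total counts were 17793811 to 20121161 per library, and each member had between 278 and 2671 counts in every library. The smooth muscle markers Acta2, Tagln and Cnn1 were high. The 7 smooth muscle markers summed to 4310 to 6170 FPKM in knockdown libraries and 4640 to 5780 FPKM in control libraries. The rest were far lower, with Myocd at 0.48 to 2.122, Myh11 at 15.788 to 40.247 and Smtn at 20.392 to 24.004 FPKM over all libraries. Lmod1 had 35.309, 36.776 and 33.44 FPKM in knockdown libraries and 37.642, 38.518 and 44.967 FPKM in control libraries. Its groups did not overlap, unlike those of the other smooth muscle markers, and its part in the results below was not tested. The 5 endothelial markers summed to 0.833 to 0.938 FPKM in knockdown libraries and 0.974 to 1.67 FPKM in control libraries. The 3 leukocyte markers in the table summed to 2.02 to 4.75 against 3.41 to 8.72 FPKM, nearly all of it Cd68, and the 4 fibroblast and adventitial markers to 197 to 256 against 281 to 329 FPKM. The 4 Schwann cell markers summed to 1.32 to 1.93 against 2.27 to 3.18 FPKM, and Cdh5, Ptprc and Sox10, which define endothelium, leukocytes and Schwann cells, were at or near 0 in each library. The fibroblast, Schwann cell and endothelial sums were lower in the knockdown libraries without overlap, and their part in the results below was not tested. Most of the fibroblast sum was Lum, at 156, 168 and 185 FPKM in knockdown libraries and 235, 220 and 235 FPKM in control libraries. Among the fibroblast, Schwann cell and endothelial markers, Lum was the only single marker without overlap. The other fibroblast markers and each endothelial and Schwann cell marker had overlapping groups. In bulk RNA, fewer cells of a type and less RNA per cell cannot be told apart.

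Levels were compared between genes only per length, in the FPKM deposited by the authors. Nsa2, a factor of late nucleolar particles, had the highest level of the 40 members, with 93.3, 87.9 and 98.9 FPKM in knockdown libraries 1 to 3 and 84.4, 76.7 and 84.0 FPKM in control libraries 1 to 3. At the other end was Nvl, an AAA-ATPase, with 4.75, 3.89 and 3.80 FPKM in knockdown libraries and 3.55, 2.93 and 3.08 FPKM in control libraries. The groups did not overlap for either gene on this scale. Gnl3 followed Nsa2 at 55.0 FPKM over all 6 libraries, then Ebna1bp2 at 51.8 and Pes1 at 42.8, while Mdn1 had 4.89 and Rrp1b 5.84 FPKM. FPKM are divided by total counts, and using total counts in place of TMM (trimmed mean of M values) moved the median of all genes up by 0.11 on the log2 scale. Changes between groups are therefore given in CPM, counts scaled to library size, after TMM normalization.

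**Figure D1:**
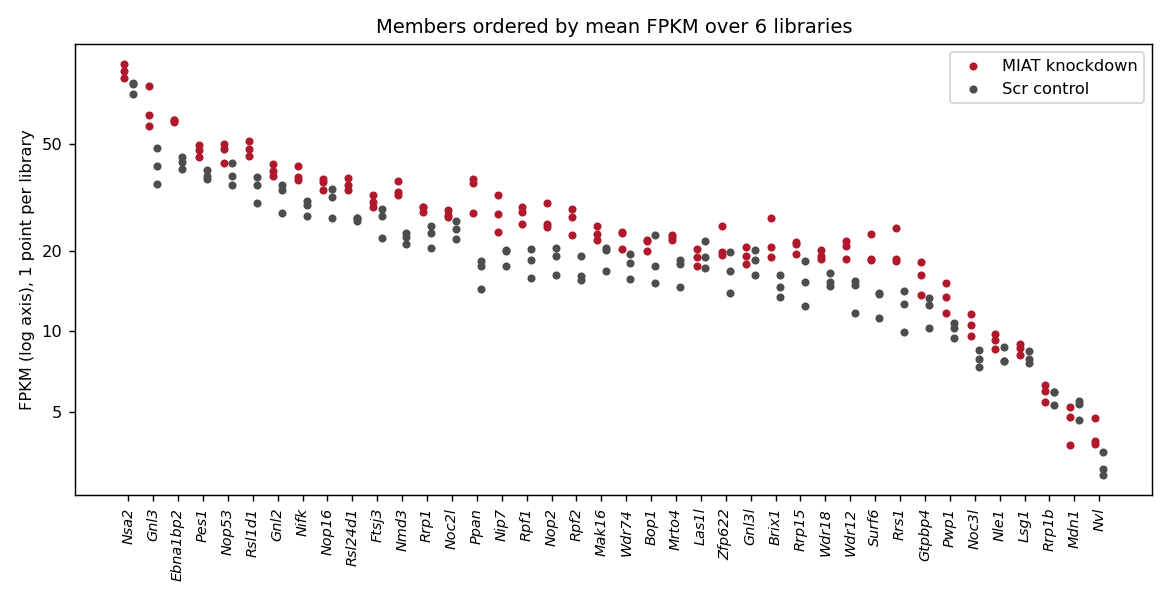
FPKM of the 40 members in each of the 6 libraries, on a log axis, with genes ordered from the highest mean level at the left to the lowest at the right. Each point is 1 library, red for MIAT knockdown and grey for Scr control, and the levels run from Nsa2 at a mean of 87.6 to Nvl at a mean of 3.67 FPKM.

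The RNAs of the assembly factors were together more abundant in the knockdown libraries. Here and below, gene names stand for RNA levels, and protein levels and the assembly of ribosomes were not examined. Their summed level was 2177, 2008 and 2027 CPM in knockdown libraries 1 to 3, against 1797, 1779 and 1659 CPM in control libraries 1 to 3. The sums did not overlap, and they averaged 2071 ± 92.7 CPM in knockdown and 1745 ± 75.3 CPM in control libraries (SD, n = 3 each). Within pairs of same-numbered libraries, the median log2 difference of the 40 members was 0.25, 0.20 and 0.30 in pairs 1, 2 and 3. Each pair thus gave a median above 0, and the medians of all tested genes in these pairs were 0.0030, -0.0095 and -0.0021.

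Tests were run over all 13423 genes that passed the low-count filter, all 40 members among them, with edgeR's quasi-likelihood test and Benjamini-Hochberg adjustment at 0.05. Without a block for the replicate number, 0 members passed, as did 0% of all genes in the upward direction, and the smallest adjusted p among members was 0.104. At an unadjusted p under 0.05, in either direction, that fit held 23 of the 40 members and 2576 of all 13423 genes. DESeq2 without the block called 12 members higher and 0 lower, against 2.73% of all genes called higher. Same-numbered libraries deviated together, so the fit with the number as a block is given as well, and "rose" and "fell" mean an adjusted p under 0.05 in that fit. Of the 40 members, 22 rose, Mdn1 fell and 17 were not past the threshold. Those shares, 55% and 2.5% of the members, stand beside 10.5% of all genes called higher and 11.1% called lower. Members had a median log2 fold change of 0.28, and all tested genes one of -0.009.

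Counts over libraries and pairs, which need no fit, are given beside the same over all genes. Every knockdown library lay above every control library for 27 members, 67.5%, beside 14.2% of all genes, and below for 1 member, beside 11.8%. The knockdown library was the higher of its pair in 3 of 3 pairs for 33 members, 82.5%, beside 28% of all genes. DESeq2 with the block called 13 members higher and 1 lower, beside 4.92% and 6.92% of all genes. Without pair 1 the edgeR fit with the block called 14 members higher and 1 lower, beside 3.96% and 4.97% of all genes. Without pair 2 it called 10 higher and 0 lower, beside 2.56% and 2.85%, and without pair 3 it called 22 and 1, beside 14.1% and 16.2%. Of the 23 members called with the block, 10 were called in the same direction under each of 11 other settings with the block, namely Ppan, Rpf1, Rrs1, Wdr12, Surf6, Rsl1d1, Ebna1bp2, Nop2, Gnl3 and Nmd3. How many of the calls over all genes held in the same way was not counted, so this number has no background.

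**Figure D2:**
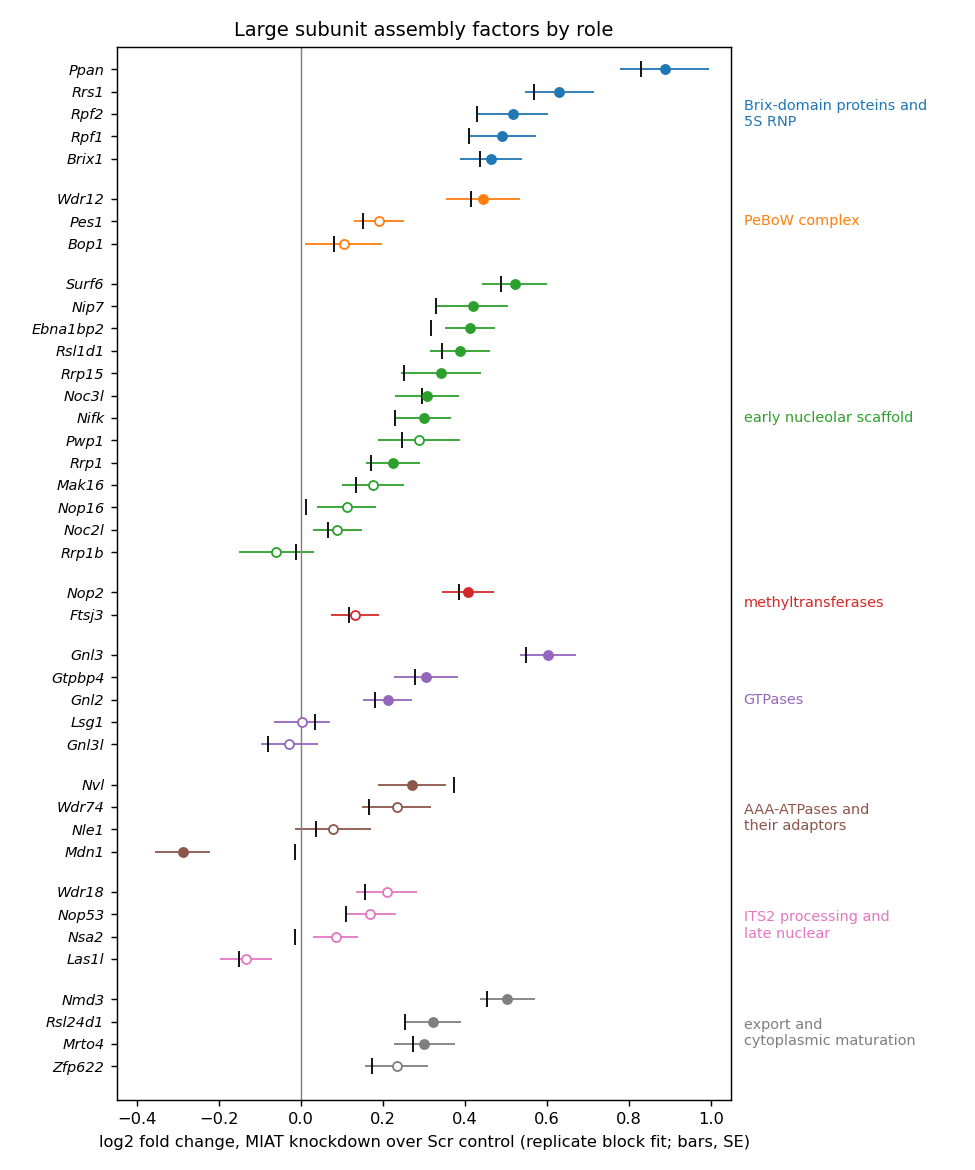
Log2 fold change of each of the 40 members, MIAT knockdown over Scr control, in the edgeR fit with the replicate block, grouped by role. Circles with bars give the value and its SE, filled where the adjusted p was under 0.05, and black ticks give the value after correction for gene length. All 5 genes of the uppermost group lie above 0.40, and Mdn1 is the member farthest below 0, at -0.29 before and -0.02 after the length correction.

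Of the genes for Brix-domain proteins and the carriers of the 5S ribonucleoprotein 5 of 5 rose, beside 10.5% of all genes called higher. Their median log2 fold change was 0.52. Ppan, the counterpart of yeast Ssf1 and a Brix-domain protein of early nucleolar particles, had 57.7, 46.2 and 61.3 CPM in knockdown libraries 1 to 3 and 31.6, 30.9 and 26.5 CPM in control libraries 1 to 3. All knockdown values lay well above all control values, and the fold change of 1.85 was the largest of the 40 members (log2 0.89, SE 0.109, edgeR adjusted p = 0.00259 with the block). Rrs1, which with Rpf2 brings the 5S ribonucleoprotein into the precursor in yeast, had 37.6, 29.7 and 28.9 CPM in knockdown libraries and 23.3, 21.3 and 17.5 CPM in control libraries. Its groups did not overlap either, and it rose 1.55-fold (log2 0.63, SE 0.0845, adjusted p = 0.0032).

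Rpf2 had 30.6, 27.1 and 33.2 CPM in knockdown libraries, against 23.3, 19.2 and 21.0 CPM in control libraries. It was higher in each pair, with log2 differences of 0.39, 0.49 and 0.66, and rose 1.43-fold (edgeR adjusted p = 0.00595 with the block). The remaining Brix-domain genes Rpf1 and Brix1 rose 1.40-fold and 1.38-fold. The calls of Rpf2 and Brix1 ended narrowly without pair 2, at log2 fold changes of 0.53 and 0.48 and edgeR adjusted p = 0.0509 and 0.0506. In the RefSeq annotation of GRCr8, Rpf1 overlaps the protein-coding gene Gng5. The strand setting of the authors' counting is not given in the sources used here, so reads of overlapping genes may not have been told apart.

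**Figure D3:**
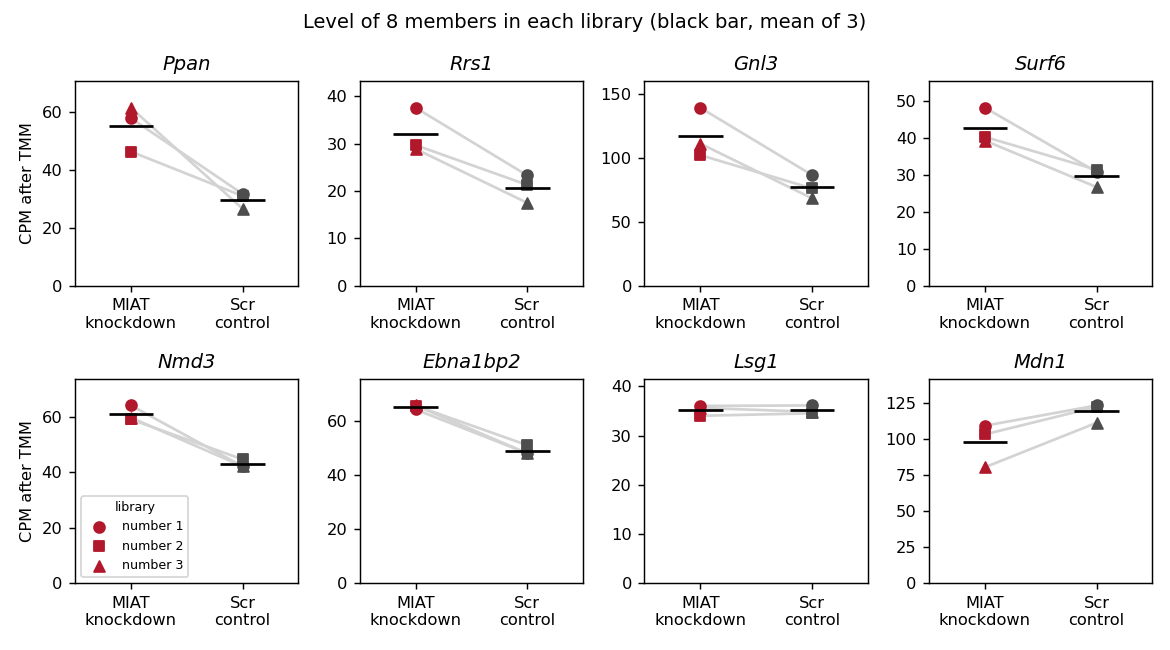
CPM after TMM normalization of 8 members in each library, MIAT knockdown at the left of each panel and Scr control at the right, with axes from 0. Symbols give the replicate number, grey lines join same-numbered libraries and black bars are means of 3. The groups stand apart in the panels of Ppan, Rrs1, Gnl3, Surf6, Nmd3 and Ebna1bp2, coincide for Lsg1, and stand in the opposite order for Mdn1.

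Of the PeBoW complex, which holds the middle of the precursor together while ITS2 is processed, Wdr12 rose, and Pes1 and Bop1 did not pass. Wdr12, its partner for the ATPase Mdn1, had 47.2, 41.8 and 46.1 CPM in knockdown libraries, against 35.5, 35.2 and 28.8 CPM in control libraries, without overlap. It rose 1.36-fold (log2 0.44, SE 0.0898, edgeR adjusted p = 0.0116 with the block). Pes1, the pescadillo protein, had 93.3, 91.1 and 99.7 CPM in knockdown libraries and 77.7, 86.2 and 85.4 CPM in control libraries. Although its groups did not overlap, it did not pass (log2 0.19, SE 0.0606, adjusted p = 0.056). It did pass in 4 other settings with the block, at edgeR adjusted p = 0.0126 with total counts, 0.0499 without a low-count filter and 0.0441 without pair 3, and at limma adjusted p = 0.0276 on log2(FPKM + 1). Bop1 had 51.5, 48.8 and 51.9 CPM in knockdown libraries and 57.3, 44.9 and 40.7 CPM in control libraries. Here the knockdown values lay inside the control range, control library 1 was the highest of all, and the adjusted p was 0.464. Bop1 overlaps Mroh1 and Scx, and Wdr12 overlaps Carf, in the RefSeq annotation. Differences between the 3 subunits were not tested.

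Genes of early scaffold proteins formed the widest group, with 8 of 13 higher, beside 10.5% of all genes. In this group 0 were lower and 5 not past the test, and the median log2 fold change was 0.30. Surf6, the counterpart of yeast Rrp14, had 48.2, 40.3 and 39.3 CPM in knockdown libraries and 30.8, 31.4 and 26.7 CPM in control libraries. No control library reached the lowest knockdown library, and it rose 1.44-fold (log2 0.52, SE 0.0792, edgeR adjusted p = 0.0044 with the block). Ebna1bp2, known in yeast as Ebp2, had 64.3, 65.7 and 65.8 CPM in knockdown libraries and 48.1, 51.1 and 48.1 CPM in control libraries. Its libraries were tight within each group, and it rose 1.33-fold (log2 0.41, SE 0.0614, adjusted p = 0.00418).

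Nip7, a small RNA-binding protein of the precursor, had 36.1, 27.2 and 31.3 CPM in knockdown libraries and 23.8, 21.2 and 25.5 CPM in control libraries. Knockdown library 2 lay only just above control library 3, and it rose 1.34-fold (edgeR adjusted p = 0.0131 with the block). Rsl1d1 rose 1.31-fold, Rrp15 1.27-fold, Noc3l 1.24-fold, Nifk, which binds Ki-67, 1.23-fold and Rrp1 1.17-fold. Several of these calls were not stable. Without pair 1 the edgeR calls of Noc3l (log2 0.29), Rrp1 (0.22), Nip7 (0.33) and Nifk (0.26) ended, and without pair 2 so did those of Noc3l (0.36), Rrp1 (0.26), Rrp15 (0.31), Nip7 (0.45) and Nifk (0.34). The Rrp1 call ended also without pair 3 (log2 0.19, adjusted p = 0.0521). With the block in DESeq2 the adjusted p was 0.154 for Noc3l, 0.24 for Rrp1, 0.17 for Rrp15 and 0.0707 for Nifk.

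The scaffold genes that did not pass were Pwp1, Mak16, Nop16, Noc2l and Rrp1b. Pwp1 and Mak16 had log2 fold changes of 0.29 and 0.17, with edgeR adjusted p = 0.0704 and 0.13 with the block. Both passed with total counts and the block (edgeR adjusted p = 0.0244 and 0.0346). Pwp1 passed with the block also without a low-count filter (edgeR adjusted p = 0.0487) and on log2(FPKM + 1) (limma adjusted p = 0.0477). Noc2l had 68.2, 66.7 and 66.4 CPM in knockdown libraries and 65.9, 63.1 and 60.6 CPM in control libraries, close but without overlap. Rrp1b, a relative of Rrp1, had 27.9, 25.1 and 27.1 CPM in knockdown libraries and 25.1, 28.7 and 29.9 CPM in control libraries. Its groups overlapped, with a log2 fold change of -0.06 (adjusted p = 0.671) beside 0.22 for Rrp1, a difference that was not tested. The sign for Rrp1b turned with total count scaling, where the log2 fold change was 0.05.

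Of the RNA methyltransferases, Nop2, which modifies the large ribosomal RNA, had 72.3, 62.8 and 60.1 CPM in knockdown libraries and 52.6, 50.0 and 44.4 CPM in control libraries. The groups did not overlap, and Nop2 rose 1.33-fold (log2 0.41, SE 0.0631, edgeR adjusted p = 0.00471 with the block). Ftsj3, the counterpart of yeast Spb1, had 87.4, 85.5 and 80.7 CPM in knockdown libraries and 82.8, 80.1 and 69.2 CPM in control libraries. Knockdown library 3 lay below control library 1, and Ftsj3 did not pass (log2 0.13, adjusted p = 0.149). It did pass with total counts and the block (edgeR adjusted p = 0.029).

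Among the GTPases 3 of 5 rose, beside 10.5% of all genes called higher, and Gnl3l and Lsg1 did not pass. Gnl3, which encodes nucleostemin, a nucleolar protein abundant in proliferating and stem cells, had 139, 102 and 111 CPM in knockdown libraries and 86.5, 76.0 and 68.3 CPM in control libraries. The groups were well apart, and Gnl3 rose 1.52-fold (log2 0.60, SE 0.0685, edgeR adjusted p = 0.00199 with the block), the lowest adjusted p of the 40 members. Its paralog Gnl3l had 32.7, 36.7 and 31.4 CPM in knockdown libraries and 33.5, 37.5 and 31.9 CPM in control libraries. Same-numbered libraries nearly coincided, with log2 differences of -0.03, -0.03 and -0.02 in the 3 pairs. The log2 fold change of Gnl3l was -0.03 (SE 0.0687, adjusted p = 0.8), and 0.08 with total count scaling and the block.

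Gtpbp4, the counterpart of yeast Nog1, had 40.1, 37.1 and 30.6 CPM in knockdown libraries and 29.4, 31.9 and 25.8 CPM in control libraries. Its groups overlapped, because knockdown library 3 lay below control library 2, yet each pair differed upward and it rose 1.24-fold (edgeR adjusted p = 0.0265 with the block). Gnl2, known in yeast as Nog2, had 91.8, 89.2 and 84.3 CPM in knockdown libraries and 81.5, 79.8 and 68.4 CPM in control libraries, and rose 1.16-fold (adjusted p = 0.0363). The Gtpbp4 call ended without pair 1 (log2 0.24) and without pair 2 (0.35), and the Gnl2 call without each pair (0.24, 0.24 and 0.16 without pairs 1, 2 and 3). With the block in DESeq2 the adjusted p was 0.131 for Gtpbp4 and 0.181 for Gnl2. Lsg1, the cytoplasmic GTPase that releases Nmd3, had 36.0, 34.0 and 35.6 CPM in knockdown libraries and 36.1, 34.5 and 34.8 CPM in control libraries. The groups coincided, with a log2 fold change of 0.0018 and an SE of 0.0683. Gnl3 overlaps Pbrm1, Gnl2 overlaps Dnali1 and Gnl3l overlaps an uncharacterized gene in the RefSeq annotation.

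Of the AAA-ATPases and their adaptors Nvl rose, Mdn1 fell, and Wdr74 and Nle1 did not pass. Mdn1, the giant ATPase that strips the PeBoW complex and other factors from the particle, had 109, 103 and 80.3 CPM in knockdown libraries and 123, 122 and 111 CPM in control libraries. Every knockdown library lay below every control library, and Mdn1 was the member that fell (log2 -0.29, SE 0.0677, edgeR adjusted p = 0.0195 with the block). Without pair 2 the call ended at a log2 fold change of -0.31 and an adjusted p of 0.0993, and with total count scaling at -0.18 and 0.0607. With a correction for gene length it ended at a log2 fold change of -0.02 and an adjusted p of 0.9. Nvl, whose human form releases the adaptor WDR74, had 31.0, 26.3 and 25.3 CPM in knockdown libraries and 24.7, 20.9 and 22.9 CPM in control libraries. It rose 1.21-fold, narrowly (adjusted p = 0.0483), and its call ended without pair 1 (log2 0.25), without pair 2 (0.24), with DESeq2 size factors (adjusted p = 0.053) and in DESeq2 (adjusted p = 0.256). Wdr74 itself had 34.3, 30.6 and 34.6 CPM in knockdown libraries and 30.1, 28.6 and 26.0 CPM in control libraries. Its knockdown values were all the higher, but it did not pass (log2 0.23, adjusted p = 0.0805). Wdr74 passed with the block on total counts (edgeR adjusted p = 0.0259) and on log2(FPKM + 1) (limma adjusted p = 0.0438). Nle1, an adaptor for Mdn1, had overlapping groups (log2 0.08, adjusted p = 0.587).

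Among genes of ITS2 processing and late nuclear steps 0 of 4 passed, a count too small to set apart from the 10.5% and 11.1% of all genes called higher and lower. With the block Nop53 passed without pair 3 (log2 0.22, edgeR adjusted p = 0.0126), and Nop53, Wdr18 and Nsa2 passed with total counts (adjusted p = 0.0125, 0.0202 and 0.0378). These genes passed also on log2(FPKM + 1) with the block (limma adjusted p = 0.0203, 0.0295 and 0.0394). Wdr18, a subunit of the complex that works with Mdn1 late in the nucleus, had 32.4, 32.9 and 34.8 CPM in knockdown libraries and 29.8, 28.2 and 28.5 CPM in control libraries. Its groups did not overlap, and the log2 fold change was 0.21 (SE 0.0745, edgeR adjusted p = 0.0778 with the block). Nop53, which helps bring the RNA exosome to the particle, had 75.6, 69.4 and 80.3 CPM in knockdown libraries and 64.0, 60.6 and 76.5 CPM in control libraries. Control library 3 lay inside the knockdown range, and the adjusted p was 0.0867. Las1l, the endonuclease that cuts ITS2, had 48.7, 53.8 and 45.7 CPM in knockdown libraries and 51.6, 60.9 and 50.4 CPM in control libraries. It was the lower of its pair in each pair with overlapping groups (log2 -0.14, SE 0.0627, adjusted p = 0.158). Nsa2, the member at the highest FPKM, had 92.9, 90.7 and 100 CPM in knockdown libraries and 89.6, 83.3 and 95.3 CPM in control libraries. On this scale its groups overlapped, unlike in FPKM, and the log2 fold change was 0.08 (edgeR adjusted p = 0.304 with the block).

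Of the genes for export and cytoplasmic maturation 3 of 4 rose, beside 10.5% of all genes called higher. Nmd3, the adaptor through which the large subunit leaves the nucleus, had 64.0, 59.0 and 59.6 CPM in knockdown libraries and 42.1, 44.6 and 42.1 CPM in control libraries. A wide gap separated the groups, and it rose 1.42-fold (log2 0.50, SE 0.0675, edgeR adjusted p = 0.0032 with the block). Rsl24d1, known in yeast as Rlp24 and a placeholder for a ribosomal protein, had 52.9, 51.8 and 49.0 CPM in knockdown libraries and 40, 41.1 and 41.8 CPM in control libraries, and rose 1.25-fold (adjusted p = 0.0131). Mrto4, a placeholder for the stalk protein, had 52.1, 52.2 and 52.5 CPM in knockdown libraries and 45.1, 44.6 and 38.0 CPM in control libraries, and rose 1.23-fold (adjusted p = 0.0238). Neither gene had overlapping groups, and the knockdown libraries were the tighter for Mrto4. The Rsl24d1 call ended without pair 1 (log2 0.29) and without pair 2 (0.32), and the Mrto4 call without pair 2 (0.34). With the block in DESeq2 the adjusted p was 0.0547 for Rsl24d1 and 0.0891 for Mrto4. Zfp622, the counterpart of yeast Rei1, had overlapping groups and did not pass (log2 0.23, adjusted p = 0.0634). With the block Zfp622 did pass with total counts (edgeR adjusted p = 0.0192) and on log2(FPKM + 1) (limma adjusted p = 0.0308).

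Gene length moved with the group difference in these libraries. Over all tested genes, the median log2 fold change with the block was 0.11 for 2190 genes under 1500 bases, 0.03 for 4155 genes of 1500 to 3000 bases, -0.04 for 4389 genes of 3000 to 6000 bases, -0.12 for 2177 genes of 6000 to 12000 bases and -0.25 for 512 genes of at least 12000 bases. The lengths are those implied by the deposited counts and FPKM, 1052 to 22036 bases for the members with a median of 1981.5, against a median of 3159 over all tested genes. Members were thus mostly short, 36 of them under 3000 bases, and the medians were 0.38 over the 8 members under 1500 bases and 0.26 over the 28 members of 1500 to 3000 bases. Both lay above the median of all genes in the same length class.

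After a correction for length in the fit with the block, 19 members were called higher and 0 lower, beside 9.41% and 7.69% of all genes, and the members' median log2 fold change was 0.24. Mdn1, at 22036 bases the longest member, went with its length class. Its log2 fold change was -0.02 after the correction (edgeR adjusted p = 0.9), close to that of genes of its length. The calls of Rrp1 (log2 0.17), Rrp15 (0.25) and Gnl2 (0.18) ended as well. Nvl, at 6900 bases, had a larger value after the correction (0.37, adjusted p = 0.0184), and Ppan had 0.83, Rrs1 0.57 and Gnl3 0.55.

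**Figure D4:**
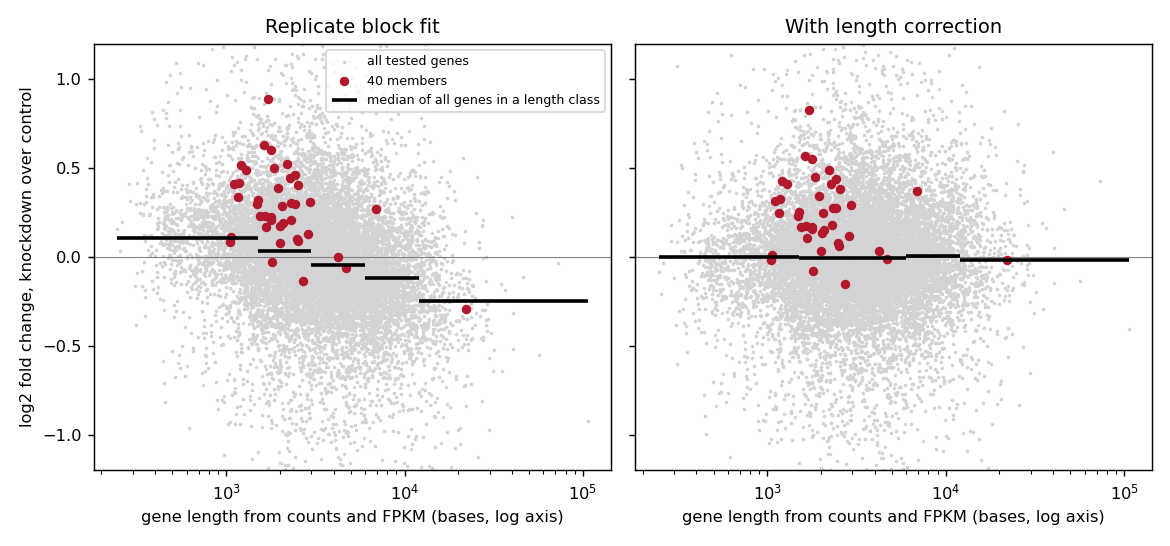
Log2 fold change, MIAT knockdown over Scr control, against gene length on a log axis, in the edgeR fit with the replicate block before (left) and after (right) correction for length. Grey points are all tested genes within 1.2 log2 units of 0, red points the 40 members and black lines the medians of all genes in 5 length classes, which run from 0.11 to -0.25 before the correction and lie near 0 after it. Most members stay above those medians after the correction, and Mdn1, the red point farthest to the right, moves onto its line.

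The members also differed between libraries of 1 group. Library number 3 lay below library number 1 for 29 of 40 members in the knockdown group and for 31 of 40 in the control group, with median log2 differences of -0.08 and -0.14. Over all tested genes the shares were 53.7% and 50.1%, beside 72.5% and 77.5% of the members. The spread over 3 libraries was small for most members, with a median coefficient of variation of 5.96% in knockdown and 8.68% in control libraries, against 11% and 12.2% over all tested genes. The lowest count in a library was 278 among members and 0 among all tested genes, and the spread was not compared with genes of like level. The highest values were 16.5% in the knockdown group, for Brix1 and Gnl3, and 18.1% in the control group, for Bop1.

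Promoters were taken from RefSeq on GRCr8, from 250 bases before to 50 bases after the annotated start, and 34 of the 40 members had an entry. The letters CACGTG, the E-box bound by MYC and related factors, occurred in 11 of these 34 promoters (32.4%), against 6.42% of all 33469 promoters in the table and 9.67% of 9649 promoters of tested genes. CCGGAAG, the core bound by ETS factors, occurred on either strand in 18 of 34 (52.9%), against 8.75% of all promoters and 17.8% of those of tested genes. A palindromic form of the NRF1 motif occurred in 0 of 34, against 0.852% of all promoters and 1.92% of those of tested genes. AAGATGGC, a form of the YY1 motif, occurred in 3 of 34 (8.82%), against 3.17% of all promoters and 5.7% of those of tested genes. The other large subunit genes described below had 39 promoters in the table. Of these, 23.1% held the E-box, 35.9% the ETS letters, 7.69% the NRF1 form and 2.56% the YY1 form. Both strands were searched, and none of these motifs contains another.

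The 80 bases before the annotated start are shown for the 5 members with an E-box in that stretch, and for Ppan, the member with the largest change, which had neither an E-box nor the ETS letters in its window. Each line runs 5′ to 3′ on the gene's strand, and capitals mark the E-box and, in Rpf2, also the ETS letters 5′ of it.
Ppan, chr8:27700067-27700146, plus strand: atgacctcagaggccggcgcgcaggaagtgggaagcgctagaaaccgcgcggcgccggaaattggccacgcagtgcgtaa
Rpf2, chr20:45205984-45206063, minus strand: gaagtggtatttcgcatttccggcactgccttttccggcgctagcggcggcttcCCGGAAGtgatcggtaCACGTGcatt
Pes1, chr14:83074266-83074345, plus strand: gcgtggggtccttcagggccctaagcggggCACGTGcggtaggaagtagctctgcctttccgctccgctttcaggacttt
Rrp1, chr20:10260500-10260579, plus strand: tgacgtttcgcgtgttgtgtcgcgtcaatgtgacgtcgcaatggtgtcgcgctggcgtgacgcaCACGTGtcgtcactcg
Gnl3, chr16:6219783-6219862, minus strand: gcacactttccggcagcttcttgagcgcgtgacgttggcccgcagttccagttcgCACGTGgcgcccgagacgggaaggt
Nle1, chr10:68340181-68340260, minus strand: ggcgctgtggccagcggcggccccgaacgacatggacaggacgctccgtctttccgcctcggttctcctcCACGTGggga

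Of these 6 genes, Ppan, Rpf2, Rrp1 and Gnl3 rose, and Pes1 and Nle1 did not pass. Among the 11 members with an E-box, 8 rose and Mdn1 fell, with a median log2 fold change of 0.32, and among the 23 members without it 12 rose, with a median of 0.27. Among the 18 members with the ETS letters 13 rose, with a median of 0.33, and among the 16 without them 7 rose and 1 fell, with a median of 0.20. Over all tested genes 10.5% were called higher in that fit, and the split by motif was not made for them. These differences between members were not tested, and a match is a description of letters, not of a bound site.

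A list of 46 other genes of large subunit assembly is set beside the members, with no test of the difference between the lists. With the replicate number as a block 15 rose (32.6%), 31 were not past the threshold and 0 fell, with a median log2 fold change of 0.20, beside 10.5% of all genes called higher. Without the block 0 of 46 passed in edgeR, and DESeq2 called 3 higher (6.52%), beside 2.73% of all genes. At an unadjusted p under 0.05, in either direction, edgeR without the block held 15 of the 46, beside 2576 of all 13423 genes. With the block DESeq2 called 6 (13%), beside 4.92%. Without pair 1 edgeR with the block called 4 (8.7%), beside 3.96%, and without pair 3 it called 17 (37%), beside 14.1%. Without pair 2 it called 1 (2.17%), no more than the 2.56% of all genes. Tma16, a factor bound to large subunit precursors in yeast, had 15.3, 14.9 and 15.8 CPM in knockdown libraries and 9.75, 11 and 10.9 CPM in control libraries (log2 0.54, edgeR adjusted p = 0.0104 with the block). Lyar, a nucleolar zinc finger protein, had 36.3, 30.1 and 25.1 CPM in knockdown libraries and 26.0, 25.9 and 17.1 CPM in control libraries (log2 0.41, adjusted p = 0.0151). Tma16 had no overlap between the groups, whereas knockdown library 3 of Lyar lay below control libraries 1 and 2.

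The other large rises were those of Zfp593, the counterpart of yeast Bud20, and Afg2a, an AAA-ATPase named Spata5 in the count table, each with a log2 fold change of 0.42 and edgeR adjusted p = 0.0265 and 0.0204 with the block. Zfp593 had 17.9, 15.1 and 13.5 CPM in knockdown libraries and 12, 11.4 and 11.2 CPM in control libraries. Afg2a had 21.9, 19.1 and 19.1 CPM in knockdown libraries and 14.4, 15.4 and 14.9 CPM in control libraries. Neither had overlapping groups. The calls ended without pair 1 for Tma16 (log2 0.49), Zfp593 (0.35), Afg2a (0.34) and Lyar (0.38), and without pair 2 for Tma16 (0.59), Zfp593 (0.43) and Afg2a (0.48). With the block in DESeq2 the adjusted p was 0.135 for Zfp593 and 0.0871 for Afg2a. Corrected for length, 14 of the 46 were called higher and 0 lower, and the value of Afg2a, at 17394 bases, was 0.66.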

How the data were processed

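The deposited counts are whole numbers by gene symbol, and the FPKM deposited by the authors are scaled to gene length and library total: 100% of FPKM above 0 equalled the count over the library total and 1 length per gene within a relative tolerance of 1e-05. For aligner, counter, strand setting and build, the sources used here give nothing. Counts were analysed with edgeR 4.0.16 (TMM, filterByExpr, quasi-likelihood test), limma 3.58.1 and DESeq2 1.42.0 in R 4.3.3, with p-values adjusted over all 13423 tested genes; the code was tested on simulated data. SE is the log2 fold change over the square root of the F statistic. The correction for length was a loess curve per library (span 0.5). After removal of group means, deviations across genes of same-numbered libraries correlated at 0.661, 0.471 and 0.545, against -0.543 to -0.042 otherwise. Such deviations sum to 0 within a group, so the negative values follow in part from the positive ones and are not separate evidence. The numbers were therefore used as pairs, from the data and not from a statement in the labels. Within groups no library was a copy of another (chi-square 17.1 to 68.8 per degree of freedom). The members, role groups, motifs and lists were chosen with earlier results of these data known. Per-library values are given for the 3 members of each role group with the largest absolute log2 fold change in the fit with the block, the highest and lowest by FPKM and members below 0, and for the 4 largest changes past the threshold among the other large subunit genes. Lsg1 and Noc2l were added after their values were seen.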

Additional observations from a re-analysis of the deposited data

How the results depend on the processing

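edgeR without the block called 0 genes higher and 0 lower, as did, all without it, limma-voom, limma-trend on log2(FPKM + 1) and log2(FPKM + 0.1), other scaling, other low-count filters, the length correction and each left-out library; DESeq2 without it called 367 higher and 332 lower, with 12 members and 3 of the 46 other large subunit genes higher. The replicate block, which rests on 2 residual degrees of freedom against 4, gave 1412 genes higher and 1486 lower, 22 members higher and 1 lower, and 15 of the 46 other large subunit genes higher. With the replicate block, counts of genes higher and lower, members higher and lower, and other large subunit genes higher were 661, 929, 13, 1 and 6 in DESeq2, 1449, 1602, 22, 1 and 15 in limma-voom, 2392, 465, 29, 0 and 23 in limma on log2(FPKM + 1), 1355, 1606, 21, 1 and 15 with DESeq2 size factors, 2822, 819, 31, 0 and 30 with total counts, 1582, 1546, 24, 1 and 18 without a low-count filter, 1322, 1540, 22, 1 and 16 at a mean of at least 5 CPM, and 1263, 1032, 19, 0 and 14 with the length correction. Leaving out libraries or pairs, these counts ran from 0 to 1924, 0 to 2200, 0 to 22, 0 to 1 and 0 to 17. The members' median log2 fold change, 0.28, was 0.34 and 0.38 on log2(FPKM + 1) and log2(FPKM + 0.1), 0.34 on log2(FPKM + 1) with the block, 0.39 with total counts without and with the block, and 0.22 to 0.31 with libraries or pairs left out; that of the other large subunit genes, 0.20, was 0.29, 0.31, 0.29, 0.31 and 0.31 in the same 5 settings. It stayed above 0 for both lists in each of the 27 settings. In these settings signs turned for Bop1, Rrp1b, Gnl3l, Lsg1 and Nsa2, members near 0, and for no other member. In the order log2(FPKM + 1), log2(FPKM + 0.1), log2(FPKM + 1) with the block, total counts and total counts with the block, Rrp1b turned to 0.041, 0.0472, 0.041, 0.0481 and 0.0474, and Gnl3l to 0.0749, 0.0787, 0.0749, 0.0764 and 0.0785. Lsg1 turned to -0.0089 and -0.009 in DESeq2 and with its size factors, and to -0.0053 at 5 CPM. Nsa2 turned to -0.0182 with the length correction and to -0.0159 with that and the block. With libraries or pairs left out, Bop1 ran from -0.0239 to 0.2421, Rrp1b from -0.163 to 0.0065, Gnl3l from -0.0948 to 0.032 and Lsg1 from -0.0204 to 0.0284. The cause was not tested.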
